A study of Rattus norvegicus with 18 samples.

Results

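Cells of the rat extraembryonic endoderm were made vacuolated with CHIR99021 and sequenced either after a sort or without one. The 3 sorted libraries are compared here with the 3 unsorted ones. They are 6 of the 18 RNA-seq libraries of the study and were chosen by their titles. Both groups were pXEN cells (labelled rat XENP) from blastocysts of the WKY strain, labelled female, and both had 0.5 µM CHIR99021, an inhibitor of the kinase GSK3, added to the routine culture. Sorted cells were at passages 35, 38 and 49, and unsorted cells were at passages 37, 41 and 51. The method of the sort, the property it selected and the time it took are not given in the sources used here. BCS-vacuolated cells (14% BCS, an abbreviation that the labels do not spell out, passages 41, 32 and 42, unsorted) and normal cells in routine culture (passages 37, 40 and 51) serve as background. They had 3 libraries each, from the same strain and source. The other 6 libraries were of vesicles, also labelled CHIR, 3 with serum and 3 serum-free, which entered the statistical model and are given as levels beside some results. Samples were prepared independently per the design text, which does not say whether they were separate derivations, so every p below measures the spread between these samples, which may be technical.

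Extraembryonic endoderm precursor cells are grown from the blastocyst and stand for the primitive endoderm, the lineage that forms the visceral and parietal endoderm of the yolk sacs. Parietal endoderm is known for laying down a thick basement membrane of laminin, type IV collagen and nidogen, and visceral endoderm for its epithelial junctions, microvilli and large endocytic and lysosomal vacuoles. GSK3 inhibition stabilises β-catenin and so turns on Wnt target genes. Immediate early genes (Fos, Jun, Egr1 and their relatives) encode mostly transcription factors and are switched on within minutes by growth factors, stretch or stress, without new protein synthesis. In many tissues they, and often heat shock genes, are known to be switched on while cells are dissociated and sorted. Sorted and unsorted cells differ both in what a sort selected and in having been handled, so enrichment of vacuolated cells and a response to handling cannot be told apart by this design for any single gene. In bulk RNA, fewer cells of a type and less RNA per cell cannot be told apart either.

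The sorted libraries held 8749690 to 12074939 strand-specific counts, against 6047673 to 7730453 in the unsorted libraries. The 2 most abundant genes, which carry clone-style symbols, took 45.8 to 53.4% of counts in sorted and 44.3 to 52.2% in unsorted libraries. Of the remaining counts, genes named by Rfam families took 1.54 to 1.96% in sorted and 2.62 to 2.68% in unsorted libraries, and clustered histone genes 0.610 to 0.673% and 0.980 to 1.05%. The single gene Rpph1 took 1.26 to 1.47% in sorted and 2.36 to 2.96% in unsorted libraries. Counts on the opposite strand, as a percentage of all counts on the strand used, were 2.06 to 2.08% in sorted and 2.74 to 2.93% in unsorted libraries. The share of the 2 most abundant genes overlapped between the groups. The totals and the Rfam, histone, Rpph1 and opposite-strand shares did not overlap. Each had p = 0.1 in an exact two-sided permutation test, the smallest that 3 against 3 can give. Their part in the gene results was not tested. Levels are given as CPM (counts per 1000000, scaled for library composition). Between replicates of either group, Pearson's r over genes lay between 0.981 and 0.986.

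Markers of extraembryonic endoderm were present in both groups. Gata4 stood at 281 to 333 CPM in sorted cells and 255 to 298 CPM in unsorted cells, Sox17 at 469.6 to 557 CPM in sorted cells and 555 to 674 CPM in unsorted cells, Pdgfra at 194 to 266 CPM in sorted cells and 212 to 276 CPM in unsorted cells, and the secreted matrix protein gene Sparc at 1239.8 to 1417 CPM in sorted cells and 1342 to 1468 CPM in unsorted cells. In none of the 5 marker lists of other cells did the sorted libraries all lie above the unsorted ones. The 10 fibroblast or feeder markers summed to 2.77 to 10.3 CPM in sorted and 2.46 to 7.07 CPM in unsorted cells, with Dcn and Postn at 0 counts, and the 6 blood and immune markers to 2.46 to 3.34 CPM and 2.52 to 2.87 CPM, with Hbb and Tyrobp at 0 counts. The 6 trophoblast markers summed to 3.91 to 5.44 CPM and 3.62 to 5.47 CPM. The 5 neural markers, mostly Stmn2, summed to 88.4 to 98.1 CPM and 117 to 123 CPM, with Sox2 and Pax6 at 0 counts, and the endothelial markers, 3 of 4 listed and mostly Tek, to 36.1 to 39.9 CPM and 39.4 to 51.4 CPM.

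Sorted cells differed from unsorted cells in 1350 of the 11503 genes tested (11.7% at an adjusted p under 0.05, edgeR's quasi-likelihood test with Benjamini-Hochberg adjustment), 769 of them higher (6.69%) and 581 lower (5.05%). Most differences were modest, since 219 were over 2-fold higher and 70 over 2-fold lower, and the median log2 fold change of all genes was 0.01. The count rested in part on single libraries. Without unsorted library 2 it was 690, without sorted library 2 it was 723, without unsorted library 1 it was 739 and without unsorted library 3 it was 876. Of the 1350 genes, 493 passed in all 6 fits that left out 1 library.

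**Figure D1:**
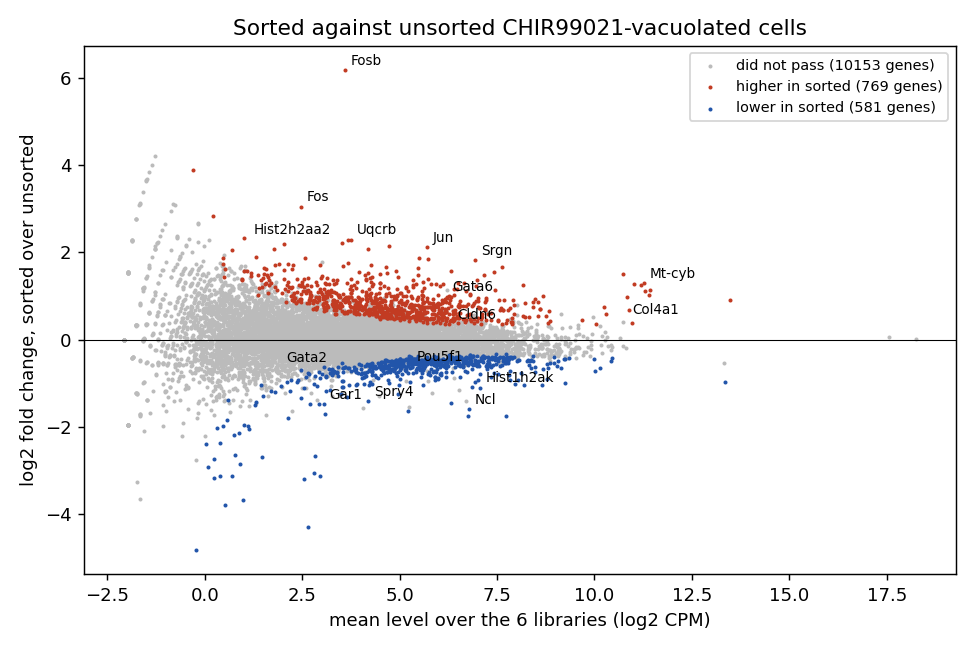
Log2 fold change of sorted over unsorted CHIR99021-vacuolated cells (y axis) against the mean level over the 6 libraries (x axis, log2 CPM), with 1 point a gene. Red points are the 769 genes that passed the test higher in sorted cells, blue points the 581 lower and grey points the rest. Fosb stands apart at 6.18, and Gata2, Cldn6 and Pou5f1 lie among the genes that did not pass.

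The largest changes were taken among called genes of at least moderate level whose groups did not overlap, so lack of overlap was fixed by this choice. The 10 largest rises in sorted cells were of Fosb, Uqcrb, Hist2h2aa2, Eif1b, Mt-nd4, Jun, Aga, Btg1, Srgn and Rela. Fosb and Jun, partners in the AP-1 transcription factor, are described below. Btg1, an anti-proliferative factor, stood at 82.7, 65.6 and 64.4 CPM in sorted cells, against 22.9, 16.2 and 18.7 CPM in unsorted cells (log2 fold change 1.87 ± 0.16, SE, adjusted p = 2.56e-08). Every sorted library lay over 2-fold above every unsorted one, and BCS-vacuolated and normal cells lay nearer to the unsorted cells, at 27.7 to 33.9 and 19.2 to 30.1 CPM. Vesicles lay above the sorted cells, at 110.2 to 119.8 CPM in vesicles with serum and 151 to 173 CPM in serum-free vesicles. Srgn, the core protein of the proteoglycan serglycin, had 206, 186 and 181 CPM in sorted cells, against 56.8, 55.4 and 49.5 CPM in unsorted cells, with 195 to 252 CPM in BCS-vacuolated and 76.9 to 104 CPM in normal cells. Here the sorted cells sat near the BCS-vacuolated ones, and the log2 fold change was 1.83 ± 0.22 (adjusted p = 2.04e-05). Rela, the p65 subunit of NF-kB, had 16.02, 22.5 and 19.2 CPM in sorted cells, against 5.89, 4.14 and 6.83 CPM in unsorted cells (1.76 ± 0.22, adjusted p = 8.84e-06). Aga, a lysosomal amidase, rose by a log2 fold change of 2.08 ± 0.21, Uqcrb, a subunit of respiratory complex III, by 2.29 ± 0.24, and Eif1b, a translation initiation factor, by 2.21 ± 0.25.

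The 10 largest falls, among genes chosen in the same way, were of Ncl, Gar1, Spry4, Psmc5, Hist1h2af, Tnfrsf19, Hist1h2ak, Hist2h2ac, Sapcd2 and Fau. Ncl encodes nucleolin, an abundant nucleolar protein of ribosome assembly, and its level was 46.6, 75.5 and 42.998 CPM in sorted cells, against 155, 184 and 155 CPM in unsorted cells (log2 fold change -1.58 ± 0.26, adjusted p = 7.85e-04). Gar1, a protein of the H/ACA particles that modify ribosomal RNA, had 3.80, 3.91 and 5.21 CPM in sorted cells, against 12.3, 11.9 and 12.2 CPM in unsorted cells (-1.48 ± 0.29, adjusted p = 0.00133). The 3 unsorted libraries lay far above the 3 sorted ones for both genes. Spry4, a feedback inhibitor of receptor tyrosine kinase signalling, stood at 7.84 to 13.02 CPM in sorted cells, against 22.1 to 33.6 CPM in unsorted, 14.9 to 22.4 CPM in BCS-vacuolated and 22.1 to 25.7 CPM in normal cells. Psmc5, an ATPase of the proteasome, fell by 1.30 on the log2 scale, Sapcd2, a regulator of spindle orientation, by 1.07, and Fau, which encodes a ubiquitin-like protein fused to a ribosomal protein, by 1.05. All 20 of these genes, other than Tnfrsf19, also passed in each of the 6 fits without 1 library. Histone genes, Fau, Eif1b and ribosomal protein genes have near-identical copies between which reads may be split, so their values are uncertain.

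**Figure D2:**
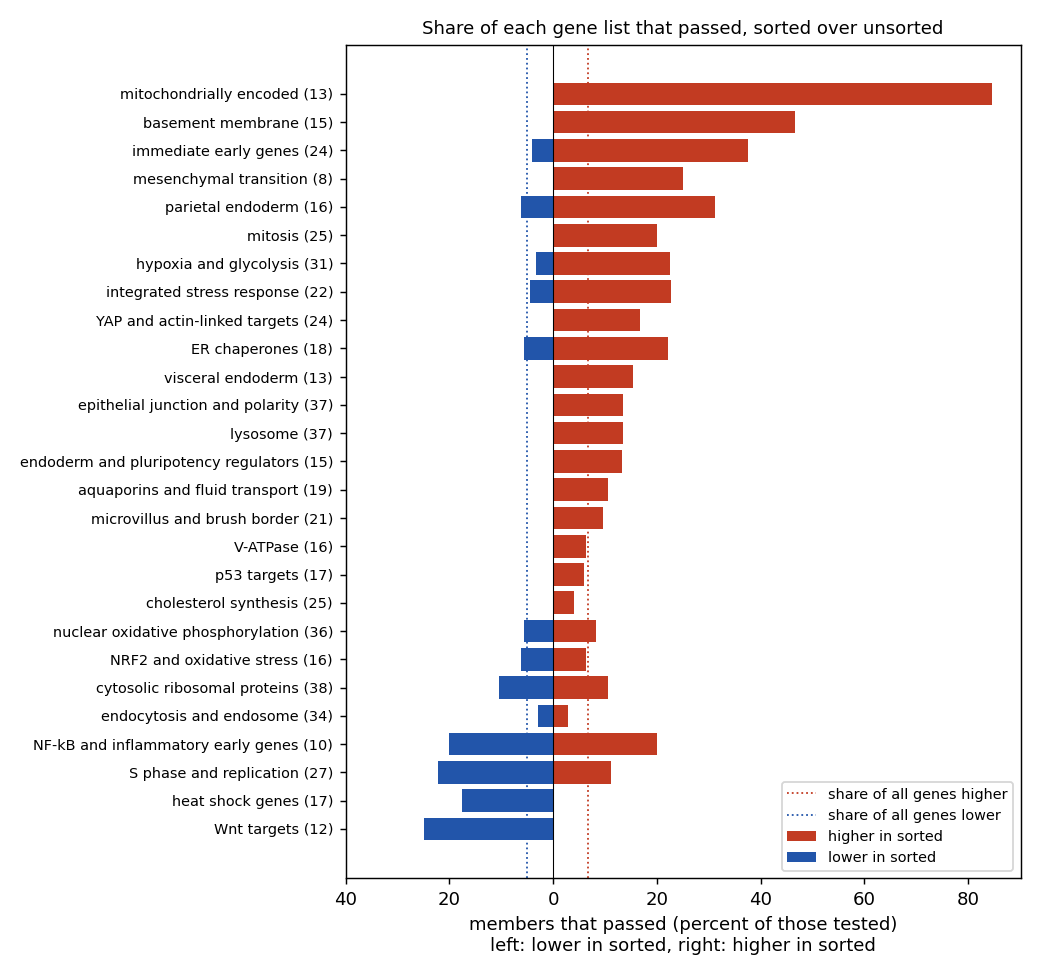
Share of tested members of each gene list that passed the test, in percent, higher in sorted cells to the right (red) and lower to the left (blue), with the number tested in parentheses. Dotted lines mark the shares of all genes, 6.69% higher and 5.05% lower. Mitochondrially encoded, basement membrane and immediate early genes have the longest red bars, and Wnt targets, S phase genes and heat shock genes are among those with the longest blue bars.

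Immediate early genes rose in part, led by the AP-1 genes Fosb, Fos and Jun. Of 30 genes on the list, 24 passed the filter on low counts, and 9 of these rose (all genes: 6.69%) and 1 fell, with a median log2 fold change of 0.60, against 0.01 over all genes. Fosb was scarce in unsorted, BCS-vacuolated and normal cells. It had 18.4, 14.5 and 34.6 CPM in sorted cells, against 0.841, 0 and 0 CPM in unsorted cells, and 0.509, 0.110 and 0 CPM in BCS-vacuolated cells and 0, 0 and 0.151 CPM in normal cells. In counts this was 728 over the sorted and 6 over the unsorted libraries, all 6 of them in unsorted library 1 (log2 fold change 6.18 ± 0.72, adjusted p = 1.59e-05). Fos had 8.64, 6.04 and 12.3 CPM in sorted cells, against 1.26, 0.862 and 1.09 CPM in unsorted cells (3.04 ± 0.44, adjusted p = 4.69e-05), and its levels in BCS-vacuolated and normal cells, at 0.661 to 1.36 and 0.151 to 1.15 CPM, lay with the unsorted cells. Jun had 71.1, 79.6 and 102 CPM in sorted cells, against 21.7, 17.4 and 18.997 CPM in unsorted cells, and 27.6, 30.9 and 25.2 CPM in BCS-vacuolated cells and 19.7, 22.1 and 15.6 CPM in normal cells (2.12 ± 0.19, adjusted p = 5.98e-08). For all 3 genes the sorted libraries lay above every unsorted, BCS-vacuolated and normal library. Vesicles held Fosb below every sorted library, at 0.835 to 5.17 CPM in vesicles with serum and 0.932 to 1.51 CPM in serum-free vesicles. Fos had 3.20 to 6.69 CPM in vesicles with serum and 2.82 to 6.56 CPM in serum-free vesicles, and overlapped with the sorted cells, whereas Jun, with 52.2 to 57.9 CPM in vesicles with serum and 31.8 to 57.3 CPM in serum-free vesicles, lay below them.

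Klf4, a zinc finger factor of the same early response, stood at 103, 84.3 and 104 CPM in sorted cells, against 35.5, 40.4 and 43.6 CPM in unsorted cells, and 36.4 to 44.5 CPM in BCS-vacuolated and 26.7 to 36.8 CPM in normal cells (log2 fold change 1.29 ± 0.16, adjusted p = 8.84e-06). Vesicles held Klf4 at 69.4 to 86.97 CPM with serum and 42.98 to 70.7 CPM serum-free, the first of which overlapped with the sorted cells. Atf3, Cyr61 and Jund also rose, but BCS-vacuolated cells, which were not sorted, overlapped with the sorted cells for Atf3 and lay above them for Cyr61 and Jund. Atf3, a stress-induced ATF/CREB factor, had 6.34, 7.38 and 9.23 CPM in sorted cells, against 2.66, 5.002 and 3.42 CPM in unsorted cells (1.07 ± 0.30, adjusted p = 0.0195). Atf3 lay at 7.64 to 10.2 CPM in BCS-vacuolated and 2.33 to 3.48 CPM in normal cells. Cyr61, a secreted matricellular protein that is also on the YAP target list, had 50.5, 53.8 and 37.9 CPM in sorted cells, against 20.5, 29.8 and 20.5 CPM in unsorted cells (1.01 ± 0.24, adjusted p = 0.00835). Cyr61 lay at 58.03 to 92.9 CPM in BCS-vacuolated and 19.1 to 27.8 CPM in normal cells. Jund, an AP-1 subunit, had 63.3, 63.6 and 71.3 CPM in sorted cells, against 41.2, 33.8 and 41.8 CPM in unsorted cells, and 82.1 to 118 CPM in BCS-vacuolated cells (0.76 ± 0.15, adjusted p = 0.00133). Klf6, a zinc finger factor, had 38.005 to 43.3 CPM in sorted cells and 24.9 to 29.7 CPM in unsorted cells, and 26.3 to 42.1 CPM in BCS-vacuolated cells (0.60 ± 0.16, adjusted p = 0.0149).

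Other members of the list did not pass or went the other way. Junb, an AP-1 subunit, had 4.72, 6.15 and 7.10 CPM in sorted cells, against 6.17, 6.73 and 7.52 CPM in unsorted cells, with overlap, and a log2 fold change of -0.17 (95% interval -0.74 to 0.39, adjusted p = 0.753). Ier2, a nuclear protein of the early response, had 17.4, 14.98 and 19.4 CPM in sorted cells, against 23.6, 20.7 and 22.004 CPM in unsorted cells, lower in each sorted library, and a value of -0.35 that did not pass (adjusted p = 0.186). Myc, which is also a Wnt target, had 5.07, 6.04 and 5.05 CPM in sorted cells, against 9.39, 12.8 and 7.52 CPM in unsorted cells (-0.87 ± 0.28, adjusted p = 0.0426). Egr1 was scarce in both groups, with 8, 12 and 9 counts in the sorted libraries, against 0, 0 and 1 in the unsorted libraries, a ratio of 19.4 (exact 95% interval 3.21 to 792, counting error only). It passed at an adjusted p of 0.0375, and sorted cells held 0.710 to 1.34 CPM, BCS-vacuolated cells 0.440 to 2.04 CPM and normal cells 0.359 to 0.605 CPM. Vesicles held more Egr1 in most libraries, at 1.84 to 4.26 CPM in vesicles with serum and 0.941 to 11.4 CPM in serum-free vesicles. BCS-vacuolated cells are labelled unsorted, and the titles of the normal cells do not mention a sort. Between these groups, 12 of the 24 members rose with BCS (all genes: 11.2%) and 1 fell (all genes: 9.51%). The summed level of the whole list was 726 to 777 CPM in sorted cells, against 423 to 470.3 CPM in unsorted cells, 854 to 1010 CPM in BCS-vacuolated cells and 305 to 363 CPM in normal cells. This sum is weighted toward abundant members and does not describe the list evenly. Ctgf had the most raw counts of any member in each of these groups. It held 5467 in sorted, 2367 in unsorted, 9265 in BCS-vacuolated and 1103 in normal cells.

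Fosb, Fos, Jun, Klf4 and Jund passed in every fit without 1 library. Without unsorted library 1 the count of members that rose was 5. Atf3 and Klf6 each failed without sorted library 3, unsorted library 1 or unsorted library 3 (adjusted p up to 0.119 and 0.0727), and Cyr61 without unsorted library 1 (0.0529). Egr1 passed only without sorted library 3 (up to 0.136 in the other 5 fits), and Myc only without unsorted library 3 (up to 0.241).

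**Figure D3:**
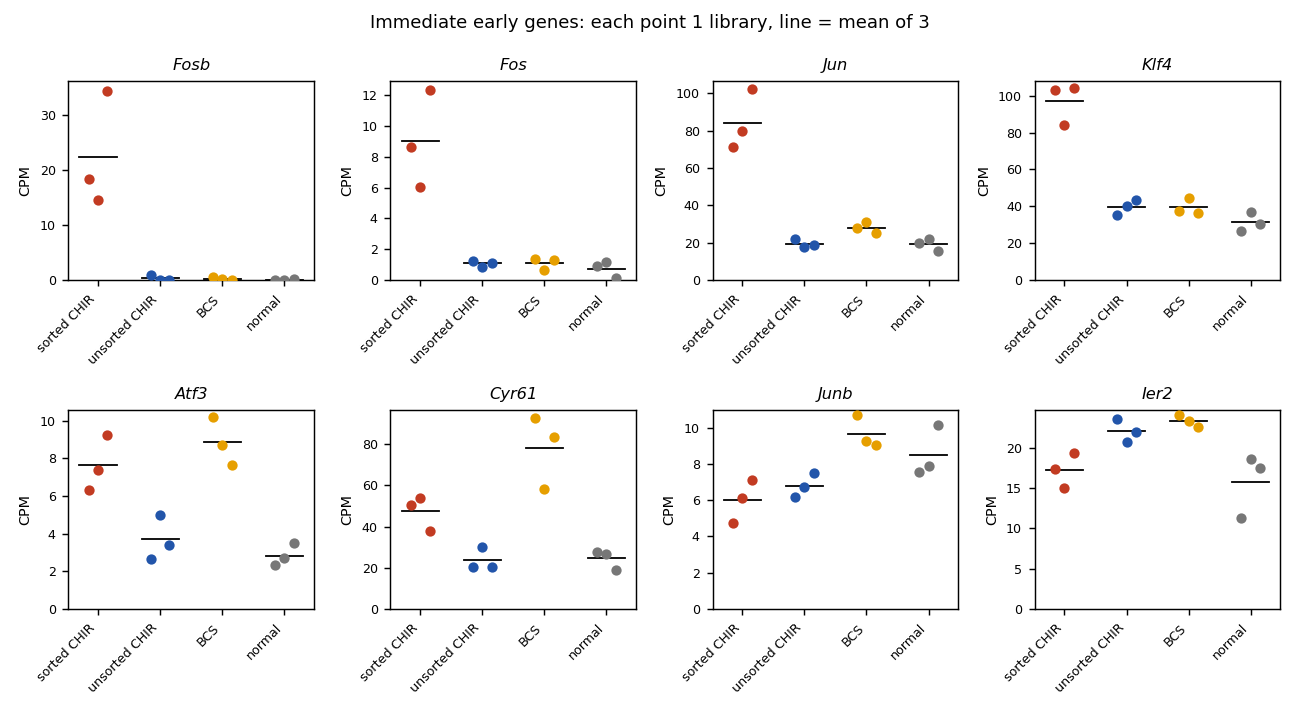
Levels of 8 immediate early genes in CPM (y axis), with 1 point a library and a line at the mean of 3, for sorted CHIR99021 cells, unsorted CHIR99021 cells, BCS-vacuolated cells and normal cells. Fosb, Fos, Jun and Klf4 are highest in the sorted cells among these 4 groups, Atf3 in BCS-vacuolated cells overlaps with sorted cells and Cyr61 lies above them, and Junb and Ier2 are not higher in sorted than in unsorted cells.

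The promoters of 4 genes are shown because these genes differ in their result within the early and heat shock lists: Fosb and Egr1 rose, and Ier2 and the heat shock gene Dnajb1 did not pass. The sequences are RefSeq's, from 250 bases before to 50 bases after the start in build GRCr8, whereas the counts rest on rn6. Both strands were searched for the CArG box bound by serum response factor, the CREB site TGACGTCA, the AP-1 site TGANTCA and a heat shock element of the form GAANNTTC, and capitals mark the matches. Fosb lies at chr1:88089135-88089434 on the minus strand, Egr1 at chr18:26736828-26737127 on the plus strand, Ier2 at chr19:40399123-40399422 on the plus strand and Dnajb1 at chr19:41431092-41431391 on the minus strand.
Fosb: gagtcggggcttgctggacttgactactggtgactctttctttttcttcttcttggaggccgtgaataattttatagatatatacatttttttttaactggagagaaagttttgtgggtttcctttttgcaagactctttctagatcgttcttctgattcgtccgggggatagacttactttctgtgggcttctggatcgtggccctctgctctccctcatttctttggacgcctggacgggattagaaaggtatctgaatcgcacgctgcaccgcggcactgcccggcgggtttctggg
Egr1: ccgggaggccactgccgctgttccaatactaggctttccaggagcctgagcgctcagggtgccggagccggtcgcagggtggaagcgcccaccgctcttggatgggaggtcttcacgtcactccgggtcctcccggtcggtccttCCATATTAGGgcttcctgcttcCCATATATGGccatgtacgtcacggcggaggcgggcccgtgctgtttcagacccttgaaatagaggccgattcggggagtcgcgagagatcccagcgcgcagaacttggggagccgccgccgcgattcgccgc
Ier2: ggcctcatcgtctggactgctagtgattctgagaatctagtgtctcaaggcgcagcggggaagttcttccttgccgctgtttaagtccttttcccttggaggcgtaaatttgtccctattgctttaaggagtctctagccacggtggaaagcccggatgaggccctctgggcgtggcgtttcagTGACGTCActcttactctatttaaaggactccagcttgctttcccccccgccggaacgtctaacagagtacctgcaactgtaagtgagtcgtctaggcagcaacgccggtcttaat
Dnajb1: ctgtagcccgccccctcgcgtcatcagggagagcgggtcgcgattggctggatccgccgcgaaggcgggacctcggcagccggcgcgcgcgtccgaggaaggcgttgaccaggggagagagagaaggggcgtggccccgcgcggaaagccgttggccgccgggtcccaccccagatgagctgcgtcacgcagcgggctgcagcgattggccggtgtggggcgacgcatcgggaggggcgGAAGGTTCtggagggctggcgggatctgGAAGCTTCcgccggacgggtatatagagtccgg
Egr1 holds CArG boxes that begin 105 and 83 bases before the start, Ier2 holds 1 CREB site and Dnajb1 holds 2 heat shock elements, while none of these motifs is in the Fosb window. In these 4 windows no match overlaps another. The windows rest on the annotated start, and sites outside them were not searched. A window without a match therefore does not show that the gene lacks such a site. Promoters were on hand for 17 of the 24 tested immediate early genes, without Fos, Jun, Atf3 and Cyr61. A CArG box was in 4 of the 17 (1.34% of the 8520 promoters of tested genes), a CREB site in 5 (3.43%) and the AP-1 site in 0 (4.74%). Among the 5 called members with a promoter on hand, 2 held a CArG box and 1 a CREB site, so other carriers did not pass. The heat shock element was in 10 of 14 promoters of tested heat shock genes (5.46% of those of tested genes). It was in 1 of the 3 called heat shock genes. A match describes the letters and is not a measured binding site.

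Few heat shock genes passed the test, and those that did were lower in sorted cells. Of 20 on the list 17 were tested, and edgeR called 0 higher (all genes: 6.69%) and 3 lower (17.6%, against 5.05% of all genes), Hsp90ab1, Stip1 and Chordc1, with a median log2 fold change of -0.33. At an unadjusted p under 0.05, 1 was higher (Cryab, log2 fold change 1.70, adjusted p = 0.103) and 8 were lower. Of all 11503 genes, 3007 had such a p in either direction. DESeq2 called 0 members higher and 5 lower, against 884 higher and 783 lower of the 11503 genes. Hsp90ab1, the constitutive cytosolic HSP90, had 1123, 1196 and 1123 CPM in sorted cells, against 1597, 1623 and 1633 CPM in unsorted cells (-0.50 ± 0.12, adjusted p = 0.00609). All 3 sorted libraries were lower, near the BCS-vacuolated cells at 1086 to 1202 CPM. Stip1, a co-chaperone that links HSP70 to HSP90, had 77.1, 86.6 and 79.5 CPM in sorted cells, against 117, 114 and 114 CPM in unsorted cells (-0.51 ± 0.13, adjusted p = 0.0116). Dnajb1, an HSP40 known as a sensitive heat shock target, had 59.6, 54.1 and 64.8 CPM in sorted cells, against 85.9, 72.3 and 71.6 CPM in unsorted cells, lower in each sorted library, and did not pass (-0.36, adjusted p = 0.188).

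The inducible HSP70 gene Hspa1a was too scarce to be tested and had more counts in sorted libraries. It had 6, 6 and 16 counts in the sorted libraries, against 0, 1 and 0 in the unsorted libraries, a ratio of 18.7 (exact 95% interval 3.09 to 765, counting error only). Its near-identical copy Hspa1b had 0 counts in all 6 libraries, so the split of reads between the copies is uncertain. Hspb1, a small heat shock protein, lay at 0.894 to 0.947 CPM in sorted cells and 0.273 to 0.862 CPM in unsorted cells, with a log2 fold change of 1.00 (95% interval -0.51 to 2.52). The fit of the 6 CHIR99021 libraries alone called 1 member higher and 8 lower, against 1385 higher and 1191 lower of 10482 genes. Without the filter on low counts, edgeR called 1 member higher and 4 lower, against 932 higher and 498 lower of 20171 genes. The fit without sorted library 1 called 1 member higher, against 594 of 11728 genes. Chordc1 failed in 4 of the 6 fits without 1 library (adjusted p up to 0.182 without sorted library 2 or 3 or unsorted library 1 or 2).

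In each of the other stress lists some members passed and most did not. Of 22 tested genes of the integrated stress response, which slows translation and raises amino acid supply, 5 rose (22.7%, against 6.69% of all genes) and 1 fell (Shmt2, 4.55%, against 5.05%), with a median of 0.28. Ddit3, the pro-apoptotic factor CHOP, had 11.2, 6.37 and 8.21 CPM in sorted cells, against 2.80, 2.76 and 3.96 CPM in unsorted cells (log2 fold change 1.42 ± 0.28, adjusted p = 0.00161). Asns, asparagine synthetase, had 181, 159 and 159 CPM in sorted cells, against 84.7, 97.3 and 87.3 CPM in unsorted cells (0.89 ± 0.15, adjusted p = 3.62e-04), and Sars, the seryl-tRNA synthetase, had a value of 0.59 ± 0.12 (adjusted p = 0.00133). In BCS-vacuolated cells both lay below every sorted library, Asns at 79.03 to 98.9 CPM and Sars at 75.2 to 93.4 CPM. Atf4, the central factor of the response, overlapped between the groups at 223 to 314 CPM in sorted cells and 274 to 286 CPM in unsorted cells. Without unsorted library 2 or 3 the list had 3 that rose, and Shmt2 passed in no fit without 1 library (adjusted p up to 0.147).

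Of 18 tested ER chaperones 4 rose (22.2%, against 6.69% of all genes) and 1 fell (5.56%, against 5.05%). Pdia3, a disulfide isomerase, had 491, 487 and 472 CPM in sorted cells, against 265, 259 and 274 CPM in unsorted cells (0.86 ± 0.11, adjusted p = 6.99e-06), and Canx, the membrane chaperone calnexin with which it works, had the opposite, 331, 348 and 272 CPM in sorted cells, against 511, 502 and 502 CPM in unsorted cells (-0.67 ± 0.15, adjusted p = 0.00368). Neither overlapped between the groups, as held for 1339 of the 1350 genes called. Pdia3 and Canx alone of the list passed in every fit without 1 library, which called between 1 (without unsorted library 2) and 3 members higher. Hspa5, the master ER chaperone, did not pass (0.18, 95% interval -0.11 to 0.47). Of 10 tested NF-kB and inflammatory genes, a small list, 2 rose (20%, against 6.69% of all genes), Rela and Nfkbia. Another 2 fell (20%, against 5.05%), Socs3 and Tnfaip3, which passed in no fit without 1 library. Nfkbia, the inhibitor that NF-kB itself induces, had 8.30, 8.72 and 12.3 CPM in sorted cells, against 3.93, 3.62 and 4.78 CPM in unsorted cells (1.25 ± 0.26, adjusted p = 0.00214). Of 17 tested p53 targets 1 rose, a share of 5.88% that is near the 6.69% of all genes (Perp, 1.07, adjusted p = 0.00994, which failed without unsorted library 2 or 3 at up to 0.0571). Cdkn1a, the p21 cell cycle inhibitor, lay at 67.2 to 81.2 CPM in sorted cells and 64.3 to 85.7 CPM in unsorted cells. The shares of the 16 tested NRF2 genes, 6.25% each way, were also near those of all genes. Among them Cat (catalase) rose by 1.05 ± 0.19 and Prdx1 (a peroxiredoxin) fell to 467 to 562 CPM, against 624 to 751 CPM in unsorted cells, a call that failed without sorted library 2 or 3 or unsorted library 1 or 2 (up to 0.154). Hmox1, the heme oxygenase of that response, did not pass (-0.24, 95% interval -0.61 to 0.13).

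Mitochondrially encoded RNA was higher in sorted cells nearly throughout. Of the 13 protein-coding genes, which encode subunits of the respiratory chain and ATP synthase, 11 rose (6.69% of all genes), with a median log2 fold change of 1.17 and a range of 0.06 to 2.15. Together they took 8.91, 7.10 and 6.76% of the counts outside the 2 most abundant genes in sorted libraries, against 4.08, 4.03 and 2.88% in unsorted libraries. The groups did not overlap, and the difference was 3.93 percentage points (exact two-sided permutation test, p = 0.1, the smallest 3 against 3 can give). BCS-vacuolated cells lay at 3.29 to 4.32% and normal cells at 3.13 to 3.38%, and the sorted libraries lay above every library of both. Vesicles had shares as high as sorted cells, 7.91 to 9.31% with serum and 7.11 to 9.43% serum-free, and 5 of the 13 genes also rose with BCS over normal cells (all genes: 11.2%). Mt-cyb, the cytochrome b of complex III, had 4216, 3136 and 3148 CPM in sorted cells, against 1582, 1535 and 1154 CPM in unsorted cells (log2 fold change 1.30 ± 0.16, adjusted p = 5.35e-06). Mt-atp6, an ATP synthase subunit, had 4152, 2749 and 2983 CPM in sorted cells, against 1576, 1541 and 1005 CPM in unsorted cells (1.26 ± 0.19, adjusted p = 9.95e-05). Mt-nd4, a complex I subunit, differed most of these genes, at 44.5, 44.6 and 37.6 CPM in sorted cells, against 10.8, 11.7 and 6.15 CPM in unsorted cells (2.15 ± 0.24, adjusted p = 1.56e-06). Mt-nd3 lay at 280.2 to 345 CPM in sorted cells and 192 to 228 CPM in unsorted cells and did not pass (adjusted p = 0.105), and Mt-nd6, the gene on the other mitochondrial strand, overlapped at 534 to 662 CPM in sorted cells and 492 to 619.5 CPM in unsorted cells (adjusted p = 0.856). Mt-atp8 failed without sorted library 1 or unsorted library 1 or 2 (adjusted p up to 0.0729), and the other 10 passed in every such fit.

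Of 36 tested nuclear genes of the same complexes, 3 rose (8.33%, against 6.69% of all genes) and 2 fell (5.56%, against 5.05%), Ndufa9 and Ndufs3, with a median of -0.11, so both shares were near those of all genes. Those that rose were Uqcrb, at 25.4, 14.3 and 25.01 CPM in sorted cells, against 5.47, 4.31 and 3.42 CPM in unsorted cells (adjusted p = 9.66e-07), Cox5a, a subunit of cytochrome oxidase, at 71.1, 56.7 and 78.9 CPM in sorted cells, against 27.5, 26.6 and 28.8 CPM in unsorted cells (1.32 ± 0.16, adjusted p = 5.35e-06), and Uqcrfs1, the Rieske iron-sulfur subunit, with a log2 fold change of 0.79. Ndufa9 and Ndufs3 each passed in 1 of the 6 fits without 1 library (adjusted p up to 0.155 and 0.123), in which between 0 and 1 members were called lower.

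Genes higher with BCS than in normal culture were more often called higher in sorted than in unsorted CHIR99021 cells than all genes were. BCS-vacuolated cells differ from normal cells both in BCS itself and in vacuolation, which cannot be told apart here. BCS-vacuolated and normal cells share no library with the sorted and unsorted CHIR99021 cells, and 561 genes (4.88% of those tested) were over 2-fold higher with BCS than in normal cells at an adjusted p under 0.05. Of these, 74 (13.2%) rose in sorted over unsorted cells, against 6.69% of all genes, and 20 (3.57%) fell, against 5.05%. Their median log2 fold change in sorted over unsorted cells was 0.30 (quartiles 0.00 and 0.66), and 75.2% had a positive value, against 0.01 and 50.8% over all genes. The 164 genes (1.43%) over 2-fold lower with BCS had a median of -0.06. Of these, 3 rose (1.83%, against 6.69% of all genes) and 8 fell (4.88%, near the 5.05% of all genes). The 561 included 8 immediate early genes, and 68 of the 74 genes that rose were on neither the immediate early nor the mitochondrially encoded list. Of the 20 that fell, 15 had Rfam symbols. The count of 74 was 42 without unsorted library 2 and 45 without sorted library 2, and 52 to 63 in the other 4 such fits. These counts describe the genes and were given no test.

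**Figure D4:**
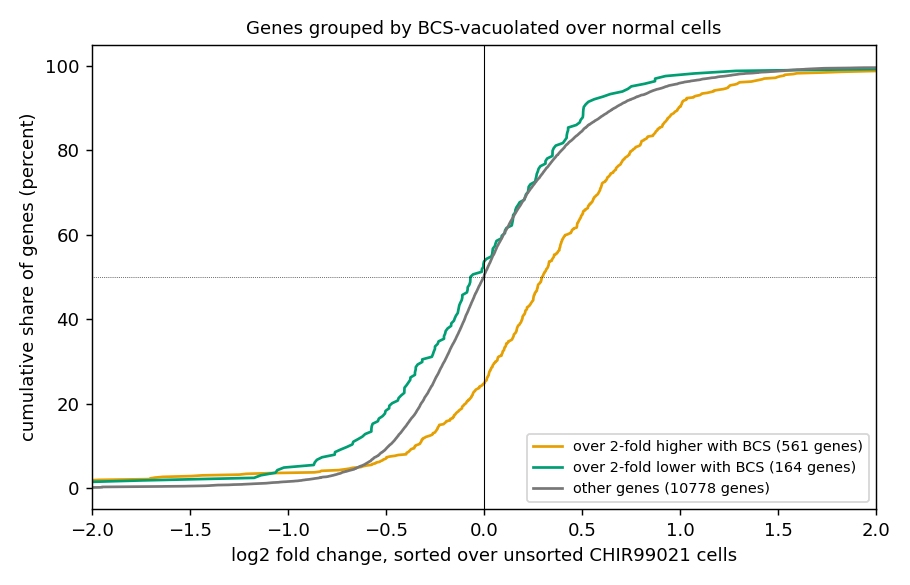
Cumulative share of genes in percent (y axis) by log2 fold change of sorted over unsorted CHIR99021 cells (x axis, shown from -2 to 2), for genes over 2-fold higher with BCS than in normal cells (561, orange), over 2-fold lower (164, green) and the other 10778 (grey). The orange curve lies to the right of the others through most of the range, with a median of 0.30.

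Ctsb, Aldoa, Ndrg1, Actb and Cldn7 are given as examples of the 74 BCS-raised genes that rose in sorted cells. Shared functions among the 74 were not counted. The 20 BCS-raised genes that fell included Gpi, which is on the hypoxia and glycolysis list like Aldoa (log2 fold change -0.39). Ctsb, a lysosomal protease of the cathepsin family, had 80.5, 93.6 and 81.3 CPM in sorted cells, against 36.5, 42.6 and 46.7 CPM in unsorted cells, and 138, 122 and 124 CPM in BCS-vacuolated cells and 13.8, 13.2 and 18.01 CPM in normal cells (log2 fold change of sorted over unsorted 1.02 ± 0.14, adjusted p = 3.19e-05). Sorted cells thus lay between the unsorted and the BCS-vacuolated cells, without overlap. Aldoa, the glycolytic aldolase, had 225, 288 and 282 CPM in sorted cells, against 138, 137 and 148 CPM in unsorted cells (0.91 ± 0.14, adjusted p = 7.71e-05). Aldoa lay at 225 to 279.8 CPM in BCS-vacuolated and 55.6 to 73.2 CPM in normal cells. Ndrg1, a hypoxia and differentiation gene, had 19.1, 19.3 and 14.9 CPM in sorted cells, against 9.67, 7.76 and 10.5 CPM in unsorted cells (0.92 ± 0.22, adjusted p = 0.00670, and 0.0509 without unsorted library 2). Ndrg1 lay at 9.58 to 20.5 CPM in BCS-vacuolated and 0.897 to 1.34 CPM in normal cells. Actb, cytoplasmic actin, had 1396, 1573 and 1583 CPM in sorted cells, against 894, 932 and 877 CPM in unsorted cells (0.75 ± 0.11, adjusted p = 7.88e-05). Actb lay at 1388 to 1649.5 CPM in BCS-vacuolated and 602 to 623 CPM in normal cells. Cldn7, a tight junction claudin, had 6.91, 4.92 and 6.55 CPM in sorted cells, against 1.54, 0.517 and 1.78 CPM in unsorted cells (2.20 ± 0.33, adjusted p = 7.60e-05). Cldn7 lay at 2.75 to 4.92 CPM in BCS-vacuolated and 1.08 to 1.54 CPM in normal cells. For Aldoa, Actb and Cldn7 the sorted libraries lay above all unsorted ones and at or above the lowest BCS-vacuolated library.

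Several genes whose levels differed widely between CHIR99021-vacuolated and normal cells did not pass between sorted and unsorted cells. Gata2, a transcription factor, had 10.9, 10.95 and 9.94 CPM in sorted cells, against 11.9, 9.31 and 12.7 CPM in unsorted cells, and 0.678, 1.21 and 0.129 CPM in BCS-vacuolated cells and 0.538, 0.576 and 0.303 CPM in normal cells. Its log2 fold change of -0.10 had a 95% interval of -0.53 to 0.33, and sorted and unsorted libraries overlapped, both above every BCS-vacuolated and normal library. Vesicles held Gata2 at 74.7 to 92.5 CPM with serum and 47.5 to 69.5 CPM serum-free. Cldn6, a claudin of early epithelia, had 75.4, 91.2 and 102 CPM in sorted cells, against 70.8, 69.2 and 72.03 CPM in unsorted cells, with 13.2 to 18.7 CPM in normal cells (no overlap between sorted and unsorted, 0.34, interval 0.0395 to 0.65, adjusted p = 0.134), and passed in the fit of the 6 libraries alone (0.0321). Cdh1, epithelial E-cadherin, had 25.6, 34.1 and 33.8 CPM in sorted cells, against 24.4, 20.7 and 29.2 CPM in unsorted cells, with overlap, against 4.03 to 11.3 CPM in normal cells (0.33, interval -0.0885 to 0.74). The keratins Krt8 and Krt18, the intermediate filaments of simple epithelia, stood lower in sorted cells, at 349 to 463 and 179 to 245 CPM, against 473 to 515 and 273 to 291 CPM in unsorted cells and 95.7 to 134 and 56.6 to 80.2 CPM in normal cells. Their log2 fold changes of -0.31 and -0.37 did not pass (adjusted p = 0.238 and 0.146). They passed in the fit of the 6 libraries alone (0.0425 and 0.0188). Pou5f1, the pluripotency factor OCT4 that these precursor cells keep, had 36.2, 38.2 and 40.2 CPM in sorted cells, against 37.3, 33.3 and 48.8 CPM in unsorted cells, with 102 to 133 CPM in normal cells (-0.06, interval -0.47 to 0.34). Vim, the mesenchymal filament vimentin, had a value of 0.13 (interval -0.26 to 0.52).

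**Figure D5:**
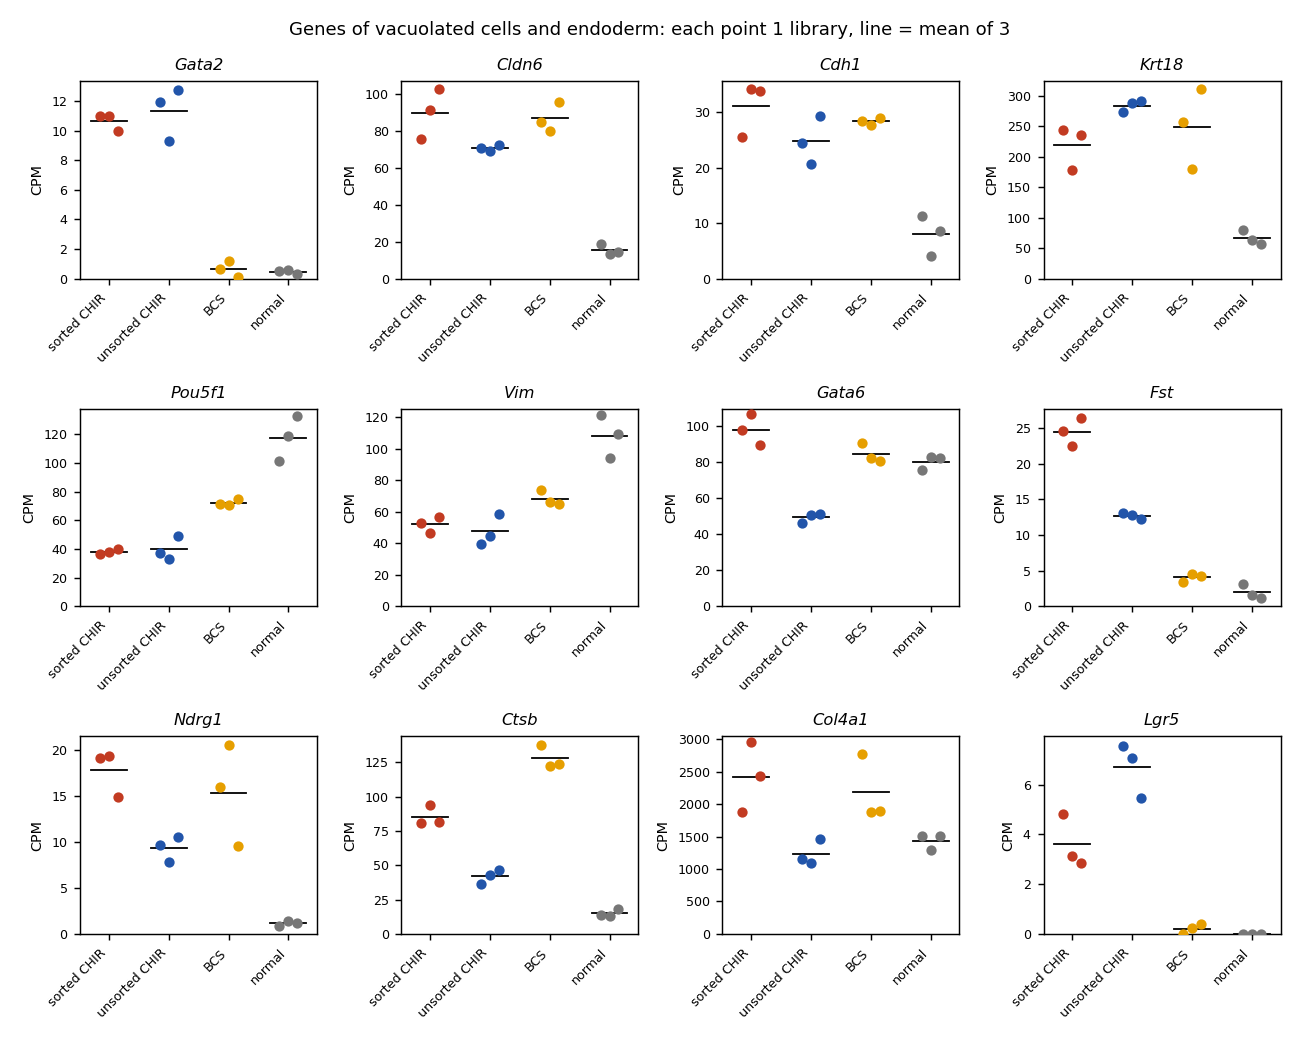
Levels of 12 genes in CPM (y axis), with 1 point a library and a line at the mean of 3, for sorted CHIR99021 cells, unsorted CHIR99021 cells, BCS-vacuolated cells and normal cells. Gata2, Pou5f1 and Vim overlap between sorted and unsorted cells, Gata6, Fst, Ndrg1, Ctsb and Col4a1 are higher in every sorted library, and Lgr5 is lower in every sorted library.

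Basement membrane genes were among the lists with the largest share of rises in sorted cells. Of 15 tested, 7 rose (46.7%, against 6.69% of all genes), with a median log2 fold change of 0.69, and 1 of the others, Sparc, had a negative value (-0.12, not passed). Col4a1, a chain of type IV collagen, had 1884, 2955 and 2433 CPM in sorted cells, against 1159, 1100.2 and 1457 CPM in unsorted cells (0.97 ± 0.18, adjusted p = 6.84e-04). Col4a1 lay at 1875 to 2771 CPM in BCS-vacuolated and 1300.2 to 1512 CPM in normal cells. Nid2, a nidogen that links laminin to collagen, had 15.8, 38.1 and 24.9 CPM in sorted cells, against 8.13, 7.24 and 11.8 CPM in unsorted cells, with sorted library 2 the highest (1.53 ± 0.26, adjusted p = 2.69e-04). Its relative Nid1 had 8.18, 6.15 and 4.58 CPM in sorted cells, against 1.82, 1.55 and 2.19 CPM in unsorted cells, but 9.08 to 12.9 CPM in normal cells, above every sorted library. The laminin chains Lamb1, Lama1 and Lamb2 rose by log2 fold changes of 0.59, 0.69 and 0.73, while Lamc1 had 512, 881 and 645 CPM in sorted cells, against 444, 399 and 516 CPM in unsorted cells, with overlap, and did not pass (adjusted p = 0.117). Sorted library 2 was the highest of the 6 for Col4a1, Lama1, Lamb1, Lamb2 and Nid2. The number of genes that rose was 4 or fewer without sorted library 2, unsorted library 1 or unsorted library 2 (lowest 3), and Col4a1, Nid2 and Lamb1 passed in all 6 such fits. P4hb, a collagen hydroxylase subunit, passed in none of them (adjusted p up to 0.166), and Nid1 failed without sorted library 1 or unsorted library 1 or 2 (up to 0.0647).

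Most regulators of endoderm did not pass the test, and Gata6 rose. Gata6, the factor that specifies primitive endoderm, had 97.5, 106 and 89.2 CPM in sorted cells, against 46.3, 50.4 and 51.1 CPM in unsorted cells, and 90.6, 81.9 and 80.3 CPM in BCS-vacuolated cells and 75.6, 82.7 and 82.04 CPM in normal cells (0.99 ± 0.14, adjusted p = 3.99e-05). The 3 unsorted libraries were the lowest of these 12, and every sorted library lay above every normal one. Of 15 tested regulators of endoderm and pluripotency, 2 rose (13.3%, against 6.69% of all genes), Gata6 and Sall4, a zinc finger factor of early embryonic cells (0.57, adjusted p = 0.0338). Sall4 passed only without sorted library 1 (up to 0.235 in the other 5 fits). The log2 fold changes and 95% intervals of those that did not pass were 0.15 (-0.15 to 0.46) for Gata4, -0.27 (-0.59 to 0.0478) for Sox17, 0.13 (-0.41 to 0.68) for Sox7, -0.22 (-0.55 to 0.11) for Pdgfra and -0.11 (-0.55 to 0.33) for Hnf4a, a factor of visceral endoderm. Of 16 tested parietal endoderm genes 5 rose (31.2%, against 6.69% of all genes), which were Snai1, Gata6, Col4a1, Fst and Lamb1, and all 5 passed in every fit without 1 library. Fst, a secreted activin antagonist, had 24.5, 22.5 and 26.4 CPM in sorted cells, against 13.04, 12.8 and 12.2 CPM in unsorted cells (0.95 ± 0.18, adjusted p = 0.00104). Fst lay at 3.39 to 4.51 CPM in BCS-vacuolated and 1.21 to 3.05 CPM in normal cells. Snai1, a repressor of E-cadherin that marks the step to parietal endoderm in mouse, had 7.61, 13.6 and 11.4 CPM in sorted cells, against 3.22, 4.48 and 4.51 CPM in unsorted cells (1.42 ± 0.32, adjusted p = 0.00412). Thbd, thrombomodulin, a parietal endoderm surface protein, was the 1 that fell, to 172 to 191 CPM, against 239 to 251 CPM in unsorted cells (-0.41 ± 0.13, adjusted p = 0.0409), and passed in no fit without 1 library (up to 0.134). Of 13 tested visceral endoderm genes 2 rose (15.4%), Cited2, a transcriptional coactivator partner (0.74 ± 0.17, adjusted p = 0.00423), and Amn, an endocytic receptor subunit (0.57, 0.0420). Amn failed in 5 of the 6 fits without 1 library, other than that without sorted library 1 (up to 0.192).

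Epithelial, lysosomal and glycolytic lists gave smaller shares. Of 37 tested junction and polarity genes 5 rose (Cldn7, St14, F11r, Cgn and Llgl2), or 13.5% against 6.69% of all genes, with a median of 0.19. F11r, the junctional adhesion molecule A, had 63.6, 59.2 and 62.1 CPM in sorted cells, against 32.7, 29.7 and 39.8 CPM in unsorted cells (log2 fold change 0.85 ± 0.14, adjusted p = 2.09e-04), and Cgn, the junction protein cingulin, failed without sorted library 2 or unsorted library 1 or 2 (up to 0.113). Of 37 tested lysosomal genes 5 rose (Ctsb, Tpp1, Man2b1, Asah1 and Glb1), also 13.5%, with a median of 0.29, while the lysosomal membrane protein gene Lamp1 lay at 552 to 629 CPM in sorted cells and 622 to 636 CPM in unsorted cells and the protease gene Ctsd at 78.9 to 103 CPM in sorted cells and 86.2 to 97.2 CPM in unsorted cells. Tpp1, a lysosomal peptidase, had 42.4, 38.5 and 37.9 CPM in sorted cells, against 28.04, 24.5 and 26.1 CPM in unsorted cells (0.59 ± 0.15, adjusted p = 0.00880, and 0.0538 without unsorted library 2). The lysosomal count was 2 without unsorted library 2 and 3 without sorted library 1, and Ctsb passed in all 6 such fits. Of 16 tested V-ATPase subunits, which acidify lysosomes, Atp6v0c alone rose, a share of 6.25% that is near that of all genes (0.74, adjusted p = 3.84e-04). Of 31 tested hypoxia and glycolysis genes 7 rose (Ndrg1, Aldoa, Slc2a1, Pgam1, Vegfa, Ddit4 and Eno1) (22.6%) and Gpi fell (3.23%, against 5.05% of all genes), with a median of 0.11. Pgam1, a phosphoglycerate mutase, had 466, 437 and 542 CPM in sorted cells, against 284, 289 and 313 CPM in unsorted cells (0.71 ± 0.12, adjusted p = 2.53e-04). That count was 3 without sorted library 1, unsorted library 2 or unsorted library 3 and 4 without unsorted library 1, Eno1 and Gpi passed in none of these fits (up to 0.124 and 0.107), and Aldoa and Pgam1 passed in all of them.

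Lists of membrane and actin genes had 2.94 to 25% of their members higher, against 6.69% of all genes. Of 21 tested microvillus genes 2 rose (9.52%), Rdx, the ERM protein radixin (0.75 ± 0.12, adjusted p = 2.32e-04), and Amn. Of 34 tested endocytosis genes (2.94% each way) Vac14, a scaffold of the kinase that makes the endosomal lipid PI(3,5)P2, rose (0.86 ± 0.22, adjusted p = 0.0133). Ehd1, a membrane recycling ATPase, fell (-0.39 ± 0.11, 0.0250). Vac14 failed without sorted library 2 or unsorted library 1 or 2 (up to 0.0923), and Ehd1 passed only without unsorted library 2 (up to 0.116 in the other 5 fits). Of 19 tested genes of water and ion transport 2 rose (10.5%), among them Atp1b3, a subunit of the sodium pump, at 55.3, 56.1 and 67.9 CPM in sorted cells, against 22.01, 29.3 and 22.96 CPM in unsorted cells (1.28 ± 0.15, adjusted p = 4.50e-06). That count was 1 without sorted library 2 or 3 or unsorted library 1 or 2, and Atp1b3 passed in all 6 such fits. Of 24 tested YAP and actin-linked targets 4 rose (Cyr61, Crim1, Actb and Vcl, 16.7%), and 1 without unsorted library 1 and 2 without sorted library 2, with Actb called in all 6 such fits. Of 8 tested genes of mesenchymal transition 2 rose (25%), Snai1 and Itga5, the fibronectin receptor subunit (0.61, 0.0243), which failed without sorted library 2 or any unsorted library (up to 0.163). Of 25 tested genes of cholesterol synthesis Srebf2 alone rose, a share below that of all genes, and failed without sorted library 2 or unsorted library 1 or 2 (up to 0.165).

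Of 12 tested Wnt targets, 3 fell in sorted cells (Tnfrsf19, Lgr5 and Myc, 25%, against 5.05% of all genes) and the other 9 did not pass, with a median of -0.10. Tnfrsf19, a receptor of the tumour necrosis factor family, had 3.80, 5.37 and 7.81 CPM in sorted cells, against 12.9, 13.3 and 12.2 CPM in unsorted cells, and 0.339, 1.87 and 1.17 CPM in BCS-vacuolated cells and 1.79, 1.73 and 1.82 CPM in normal cells (-1.15 ± 0.31, adjusted p = 0.0158). Lgr5, a receptor for R-spondin, had 4.84, 3.13 and 2.84 CPM in sorted cells, against 7.57, 7.07 and 5.47 CPM in unsorted cells, and was listed at 0 to 0.388 CPM in BCS-vacuolated cells and 0 in normal cells (-0.91 ± 0.27, adjusted p = 0.0321). Both genes were thus lower in each sorted than in each unsorted library, and in sorted and unsorted cells alike they lay above every BCS-vacuolated and normal library. Axin2, the negative feedback regulator of the pathway, was too scarce for a narrow estimate, at 1.15, 2.35 and 1.34 CPM in sorted cells, against 1.54, 1.72 and 1.64 CPM in unsorted cells (-0.03, interval -1.19 to 1.14). Each of the 3 calls failed in 4 or 5 of the 6 fits without 1 library, and 0 members passed without sorted library 2, unsorted library 1 or unsorted library 2 (adjusted p up to 0.0838 for Tnfrsf19 and 0.144 for Lgr5).

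S phase genes moved in both directions, and the mitosis genes that passed were higher. Of 27 tested S phase and replication genes 3 rose (Rrm2, Mcm6 and Cdt1, 11.1%, against 6.69% of all genes) and 6 fell (Rrm1, Uhrf1, Mcm5, Cdc6, Mcm10 and Mcm2, 22.2%, against 5.05%), with a median of -0.24. Mcm2, a subunit of the replicative helicase, had 132, 129 and 148 CPM in sorted cells, against 228, 227 and 248 CPM in unsorted cells (-0.78 ± 0.11, adjusted p = 2.07e-05), and Mcm6, another subunit of the same helicase, had the opposite, 69.4, 68.5 and 82.2 CPM in sorted cells, against 36.7, 42.3 and 43.6 CPM in unsorted cells (0.85 ± 0.17, adjusted p = 0.00144). The same held for the subunits of ribonucleotide reductase, the source of deoxynucleotides, where Rrm2 had 359, 358 and 421 CPM in sorted cells, against 204, 226 and 202 CPM in unsorted cells (0.85 ± 0.15, adjusted p = 4.57e-04) and Rrm1 had a log2 fold change of -0.54 (0.00233). Of 25 tested mitosis genes 5 rose (Cenpf, Ube2c, Tpx2, Top2a and Hmmr, 20%) and the other 20 did not pass, with a median of 0.15. Cenpf, a kinetochore protein, had 38.4, 41.02 and 41.2 CPM in sorted cells, against 19.5, 18.8 and 21.2 CPM in unsorted cells (1.02 ± 0.18, adjusted p = 5.79e-04), and Tpx2, a spindle assembly factor, had a value of 0.77 ± 0.13 (adjusted p = 4.30e-04). Mki67, the proliferation antigen Ki-67, had 113, 172 and 118 CPM in sorted cells, against 93.7, 96.4 and 91.98 CPM in unsorted cells and did not pass (0.51, interval 0.0973 to 0.93), while Ccnb1, mitotic cyclin B1, overlapped at 187 to 219 CPM in sorted cells and 179.9 to 193 CPM in unsorted cells. Mcm10 and Uhrf1 passed in no fit without 1 library (adjusted p up to 0.173 and 0.0997), Cdt1 in 2 and Hmmr in 1, and Mcm2, Mcm6, Rrm1, Rrm2, Cenpf and Tpx2 in all 6.

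Of 38 tested cytosolic ribosomal protein genes 4 rose and 4 fell (10.5% each, against 6.69 and 5.05% of all genes), with a median of -0.17. Rps28 had 210.2, 147 and 208 CPM in sorted cells, against 101, 109 and 99.1 CPM in unsorted cells (0.87 ± 0.13, adjusted p = 8.64e-05), and Rps15, Rps20, Rps25 and Rpl36 fell by 0.54, 0.52, 0.49 and 0.50 on the log2 scale. All 5 encode parts of the ribosome, yet Rps28 rose while the other 4 fell. Sorted and unsorted libraries did not overlap for any of the 5, as for 1339 of the 1350 genes called. The count of those that fell lay between 1 and 6 in fits without 1 library (1 without sorted library 2, sorted library 3 or unsorted library 1), with Rps15 called in all of them.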

How the data were processed

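RNA of 18 libraries was sequenced as paired reads after ribosomal RNA depletion with a directional kit, per the labels' protocols. The deposited files hold raw counts per gene for 28695 genes. Per the submitters' processing notes the authors used bcl2fastq, Trimmomatic 0.38, STAR 2.6.1 and build rn6. Of the count columns, the one for the reverse strand was used.

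Counts were tested with edgeR 4.0.16 (R 4.3.3, limma 3.58.1): TMM scaling, a filter at a minimum count of 10 that kept 11503 genes, and a robust quasi-likelihood fit over all 18 libraries in 6 groups (12 residual degrees of freedom, biological coefficient of variation 16.1%), and p-values adjusted by Benjamini-Hochberg, called under 0.05. Log2 fold changes carry their SE. The fit was tested on simulated data. Of 50 genes changed 1.5-fold it called 21, of 50 changed 2-fold 43, and of 50 each changed 4-fold and 8-fold it called 50. Of 11151 unchanged genes it called 8. A gene that did not pass may therefore still differ modestly. DESeq2 1.42.0 and other settings were tried as alternatives. Intervals on ratios of counts cover counting error only.

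Named genes were the 10 largest changes each way among called, non-overlapping genes whose log2 CPM averaged 3 or more, the 2 called members with the smallest p of each list with at least 2 called, and a set of fixed genes. Other list members are examples beside their list's count. The genes, lists (32, with 679 of 706 genes in the files) and tests were chosen with earlier results of these data known. Some list members are not reported here.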

Additional observations from a re-analysis of the deposited data

Results flagged for a closer look

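Counts on the opposite strand, which the comparisons above do not use, also differed between sorted and unsorted cells. This was looked at after the values were seen. Of 1422 genes tested there with edgeR's quasi-likelihood test, 19 were called higher and 13 lower in sorted cells. Of the called genes, 14 were also tested on the strand used, and 0 of these were called the same way there. At Best1, opposite-strand counts were 6533 in sorted and 1592 in unsorted libraries (log2 fold change 1.58, adjusted p = 3.43e-05), against 16 and 9 on its own strand. Best1 neighbours Fth1 in the RefSeq order of genes. At Mt-nd6, which lies opposite other mitochondrial genes, the opposite strand held 19572 and 4463 counts (1.71, adjusted p = 4.14e-05), against 17325 and 11081 on its own strand (adjusted p = 0.856). At Pkd1l3 the counts were 233 and 72 (1.26, adjusted p = 0.00328), against 2 and 6. Groups of 3 libraries were not examined for single outlying libraries.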

How the results depend on the processing

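Of 1366 values of the 86 named genes under alternatives, 1290 kept direction and side of the threshold, 65 no longer passed, 11 newly passed and 0 changed direction. DESeq2 called 1667 genes, the fit without the low-count filter 1430 and libraries thinned to equal counts 1097, against 1350. The 6 libraries alone gave 2576 genes (1385 higher, 1191 lower), 146 of the BCS-raised genes and 12 basement membrane genes. No filter gave 118 and 11 of these. Same-numbered sorted and unsorted libraries deviated from their group means with correlations of 0.07, -0.15 and 0.07. Differently numbered ones had correlations of -0.21 to 0.16. With 3 libraries a group, these values cannot decide whether the numbers pair the libraries. With the replicate number as a block, 18 libraries gave 1232 genes and the 6 alone 2404 (1305 higher, 1099 lower), 142 BCS-raised genes and 12 basement membrane genes. Leaving out 1 library gave 690 to 954 genes (449 to 594 higher, 232 to 368 lower), 2191 to 2326 for BCS over normal, 42 to 63 BCS-raised genes, 5 to 8 immediate early, 10 to 11 mitochondrially encoded and 3 to 7 basement membrane genes. It gave differences of 3.27 to 4.34 percentage points in the mitochondrial share and -1.81 to 2.23 in the share of the 2 most abundant genes. With all counts as denominator the mitochondrial difference was 1.96 points. The cause of these shifts was not tested. Unsorted libraries were shallower, which limits scarce genes such as Egr1, Hspa1a and Axin2.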

Other observations

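Gene families picked by symbol, after their values were seen and with no test of their own, mostly had more falls than rises in sorted cells, where 5.05% of all genes fell and 6.69% rose. Of 28 tested clustered histone genes, which package newly made DNA, 15 fell (53.6%) and 1 rose (Hist2h2aa2), with a median log2 fold change of -0.76, and 11 to 14 fell in fits without 1 library. Of 105 tested genes with Rfam symbols, which are small structured RNAs, 21 fell (20%), with a median of -0.64, and 10 fell without sorted library 2. Of 37 tested proteasome genes (Psm symbols) 13 fell (35.1%) and 3 rose (8.11%, Psmd2, Psmd7 and Psmd14), and 4 fell without sorted library 2 or unsorted library 2. Of 25 tested genes with Rrp, Utp or Nop symbols, which act in ribosome assembly, 8 fell (32.0%) and Nop10 rose, and 3 fell without sorted library 2. Of 52 tested translation initiation factor genes (Eif symbols) 8 fell (15.4%) and 6 rose (11.5%). Of 7 tested genes of the chaperonin CCT 3 fell (42.9%) and Cct8 rose, and of 10 tested exosome genes (Exosc symbols) as many rose as fell, 2 each (20%). Histone genes and small RNA genes have near-identical copies, so single values are uncertain.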
